A study of Homo sapiens with 14 samples.

Results

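The experiment described is the knockdown of the long noncoding RNA LINC00152 in U87-MG glioblastoma cells, read within replicate pairs. Its members are all arrays labelled as this line, 8 of the 14 arrays of the series, and each knockdown array was set against the control array of the same set number. Control cells (sets 1 to 4, 4 arrays) received a negative control siRNA of medium GC content that has no target RNA. Knockdown cells (sets 1 to 4, 4 arrays) received an siRNA against LINC00152 within exon 1. Both groups were electroporated with 20 pmol/ml siRNA, kept in the same serum-containing medium and harvested 40 h later by the labels, while the paper states a later time. The other 6 arrays hold the same treatments in A172, another glioblastoma line. Total RNA was labelled with the dye Cy3 and hybridised to Agilent arrays of 50599 probes. U87-MG is a long-passaged line grown as a monolayer, all RNA came from whole cultures at a single time point, and no untransfected cells were arrayed. Changes in the level of an RNA per cell and changes in the mix of cells cannot be told apart in such bulk samples.

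LINC00152, listed by RefSeq as CYTOR, is a long noncoding RNA that is abundant in many tumours, glioblastoma among them. It has a near-identical copy elsewhere on the same chromosome, MIR4435-2HG, which also serves as host gene of a microRNA. Long noncoding RNAs can act by binding proteins, by pairing with other RNAs or by sequestering microRNAs, and siRNAs against their exons direct the cleavage of the transcript.

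The labelled line was compared with its markers. Signals are given as log2 intensity minus the 75th percentile of the non-control spots of that array, called log2 signal below, so that 0 is a fairly bright spot. VIM, the mesenchymal intermediate filament, lay between 8.32 and 9.02 on all 8 arrays. The neural progenitor filament gene NES (A_33_P3358233) lay between 6.39 and 8.19 (a dimmer NES probe, A_23_P103672, between -0.19 and 1.44), and CHI3L1, a secreted glycoprotein of mesenchymal glioblastoma, between 1.24 and 3.17. The astrocyte genes GFAP and S100B, the stem cell factor SOX2 and CDKN2B were well above background on 0 of 8 arrays, and the glial factor OLIG2 was so on 2 control and 1 knockdown arrays. A CDKN2A probe (A_23_P43490) lay between 3.13 and 4.21 on all arrays, although this line is known for a deletion that covers the gene. A dimmer CDKN2A probe, A_33_P3411628, lay between -1.8 and -0.12 and was well above background on all 8 arrays. What these probes detected was not tested.

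Signal strength was uneven between the sets. The 75th percentile of intensity was 56.7, 59.0, 33.0 and 69.0 on the control arrays of sets 1 to 4 and 60.8, 56.9, 42.6 and 65.1 on the knockdown arrays. The share of spots well above background was 46.1%, 47.9%, 35.7% and 48.3% on the controls and 45.8%, 44.4%, 40.4% and 48.3% on the knockdowns. Both arrays of set 3 were thus the dimmest of their group, and 0 spots were saturated on any array. The difference between the arrays of a set had an SD over tested probes of 0.36, 0.35, 0.63 and 0.37 log2 units in sets 1 to 4. All 8 arrays lay on a single slide, the controls along its first row and the knockdowns along its second, so the effect of the siRNA and of the slide row cannot be told apart.

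The siRNA sequences are shown because they tell which transcripts it could cut. The study's supplement lists a pair of siRNAs against exon 1, and the array labels do not say which of them was used; the paper names the first where it checks the knockdown in both lines. Capitals mark the bases that are also found in the forward PCR primer of LINC00152.
siLINC00152 #1: TGCCTGTCTTCAGATCTTCacagca
siLINC00152 #2: agtttcaaattgacattccagacaa
In the first siRNA 19 of 25 bases lie within that primer, and the supplement gives the identical forward primer for the transcript it calls MIR4435-1. The second siRNA shares no run of that length with it.

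The windows around the annotated starts of both copies are shown because they make visible how alike the copies are. They run from 250 bases before to 50 bases after the start in RefSeq (GRCh38.p14) and lie at chr2:87455177-87455476 on the plus strand (CYTOR) and chr2:111495112-111495411 on the minus strand (MIR4435-2HG). Capitals mark TGANTCA, the AP-1 motif, and TTCNNNGAA, the STAT motif, searched on both strands.
CYTOR: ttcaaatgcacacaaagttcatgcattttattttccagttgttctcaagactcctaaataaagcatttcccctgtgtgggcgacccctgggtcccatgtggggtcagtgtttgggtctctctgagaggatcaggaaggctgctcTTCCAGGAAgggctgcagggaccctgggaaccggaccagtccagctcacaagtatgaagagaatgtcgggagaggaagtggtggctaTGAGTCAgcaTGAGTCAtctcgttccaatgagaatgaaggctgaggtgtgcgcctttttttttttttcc
MIR4435-2HG: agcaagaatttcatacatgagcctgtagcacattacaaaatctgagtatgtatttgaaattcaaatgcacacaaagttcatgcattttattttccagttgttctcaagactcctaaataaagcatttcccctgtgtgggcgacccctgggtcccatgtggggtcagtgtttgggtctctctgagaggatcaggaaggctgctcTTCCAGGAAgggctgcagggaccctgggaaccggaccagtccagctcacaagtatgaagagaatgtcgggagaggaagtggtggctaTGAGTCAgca
The first 241 bases of the CYTOR window are identical to the last 241 of the other, which is annotated with a start further upstream in the shared sequence. The CYTOR window holds 2 AP-1 matches and 1 STAT match, and the MIR4435-2HG window 1 of each. Of 27305 RefSeq windows of this length, 7.98% hold TGANTCA and 7.95% hold TTCNNNGAA; a match is a description of letters only.

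The 4 locus probes listed before the fit all fell in the U87 knockdown cells. The LINC00152 probe (A_24_P273143) had a log2 signal of 1.94, 1.83, 1.71 and 1.82 in control sets 1 to 4 and of -1.21, -0.88, -0.74 and -0.79 in the knockdown sets. The groups were far apart, and every knockdown array lay below every control array. The log2 fold change was -2.73 (SE 0.14, n = 4 pairs, limma adjusted p = 0.0126), which left 15.1% of the control level. The probe A_21_P0012079 of MIR4435-2HG stood at 1.76, 2.01, 2.43 and 1.87 in controls and at -1.15, -1.33, -0.40 and -0.92 after knockdown. It fell in all 4 pairs by a like amount, with a log2 fold change of -2.97 (adjusted p = 0.00852), to 12.8% of control. The other MIR4435-2HG probe, A_21_P0012078, changed by -2.08 (adjusted p = 0.026), and A_21_P0012077, listed for an unnamed transcript of the locus, by -1.62 (adjusted p = 0.0144). The lowered RNA was still well above background on all 4 knockdown arrays for each of the 4 probes. Because the copies share sequence, the part that each copy contributed to these signals was not tested. A further bright probe that RefSeq names assign to MIR4435-2HG, A_33_P3269678, was not on that list; its log2 fold change was -0.31 (adjusted p = 0.342) and it was not called. Normexp background correction moved the LINC00152 log2 fold change to -1.52 and those of A_21_P0012079, A_21_P0012078 and A_21_P0012077 to -1.69, -0.79 and -0.72, all still called. A_21_P0012078 lost its call when the pairing was ignored (adjusted p = 0.291), and both A_21_P0012078 and A_21_P0012077 lost theirs when no filter was set.

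**Figure D1:**
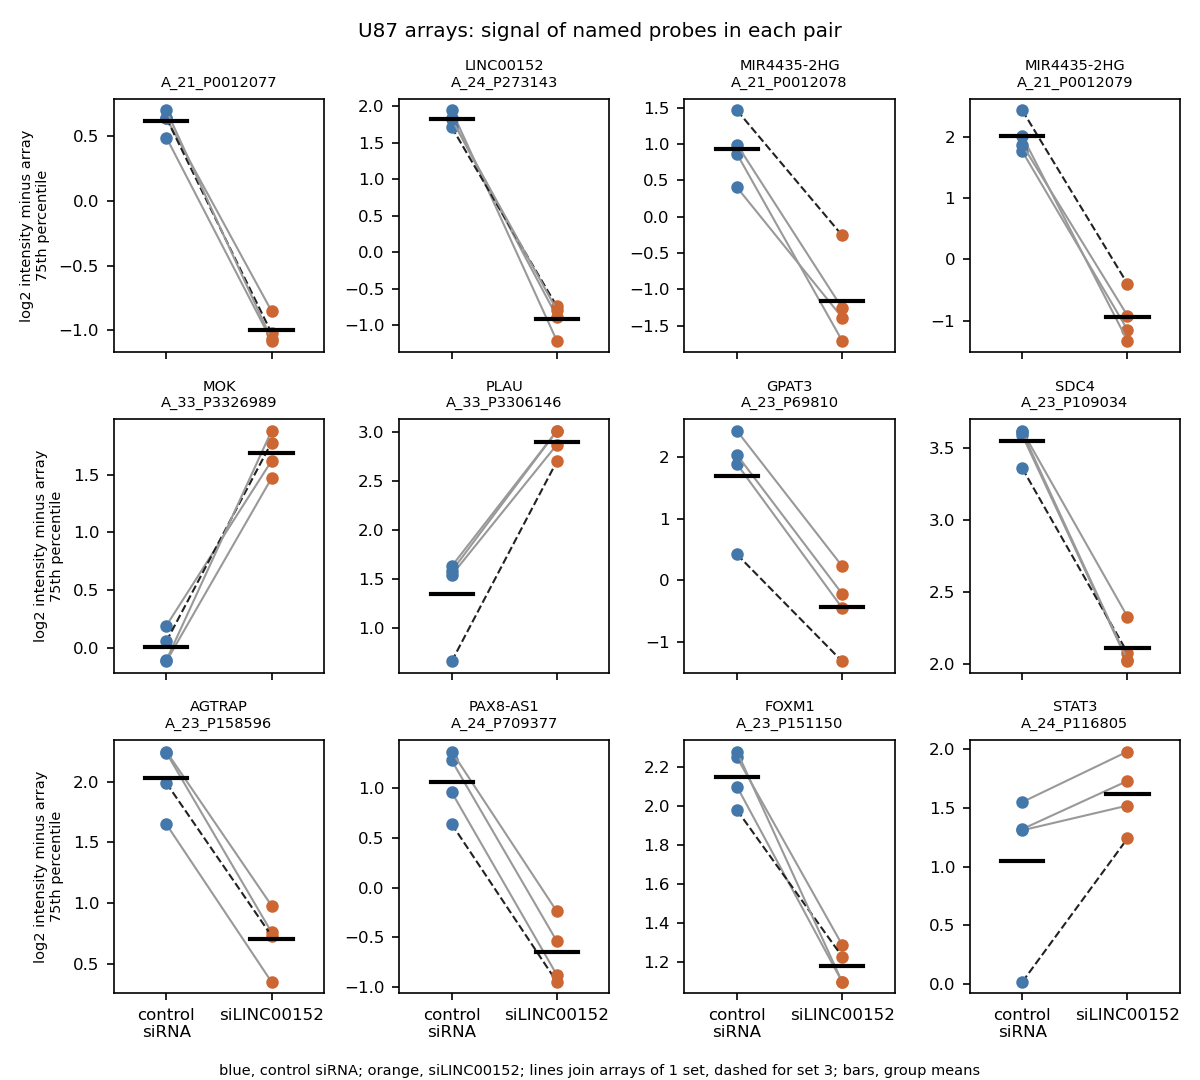
Log2 signal (log2 intensity minus the array's 75th percentile) of 12 named probes in control siRNA and siLINC00152 arrays of U87; points are arrays, lines join the arrays of a set (dashed for set 3) and bars are group means. The LINC00152 probe dropped from between 1.71 and 1.94 to between -1.21 and -0.74 without overlap, while the STAT3 probe overlapped between the groups, with control set 3 at 0.019.

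With the locus probes included, 676 of 21918 tested probes (3.08%) were called changed in U87, 341 higher and 335 lower. This addresses the question of which transcripts differ after knockdown of LINC00152. Tested probes had a signal flagged as well above background on 3 or 4 arrays of either group, and a probe was called at a false discovery rate below 0.2 with an absolute log2 fold change above 0.5 (limma, set number as block). The calls with a gene symbol numbered 548 and fell on 504 different genes; 510 were protein coding and 23 long noncoding. Most changes were modest: the median log2 fold change was 0.67 among the higher and -0.71 among the lower, and 95 probes exceeded an absolute value of 1 (40 higher, 55 lower). The calls that fell were mostly dim: when tested probes were split by signal into 3 near-equal parts, 197 of them came from the dimmest part and 47 from the brightest, against 118 and 110 of those that rose. Over all tested probes the median log2 fold change was -0.017. Under median centring of each array 394 probes were higher and 211 lower.

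The number of calls depended strongly on the pairs and the processing. It was 25 without set 1, 23 without set 2 and 18 without set 4, but 998 without set 3, 10 when the pairing was ignored, 32 at a false discovery rate below 0.05 and 2 when all 50598 probes with an estimate were tested. Among the 95 called probes named here, 68, 68, 11 and 70 lost the call when sets 1, 2, 3 and 4 were left out. Normexp correction took the call from 47 of them, many of the list members below included, and ignoring the pairing from 86. The named probes called with each set left out in turn were 14: the 4 listed for the locus, both of MOK, and 1 each of PLAU, TP53INP1, GPAT3, C6orf141, PAX8-AS1, SDC4, AGTRAP and LYPLAL1-DT.

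**Figure D2:**
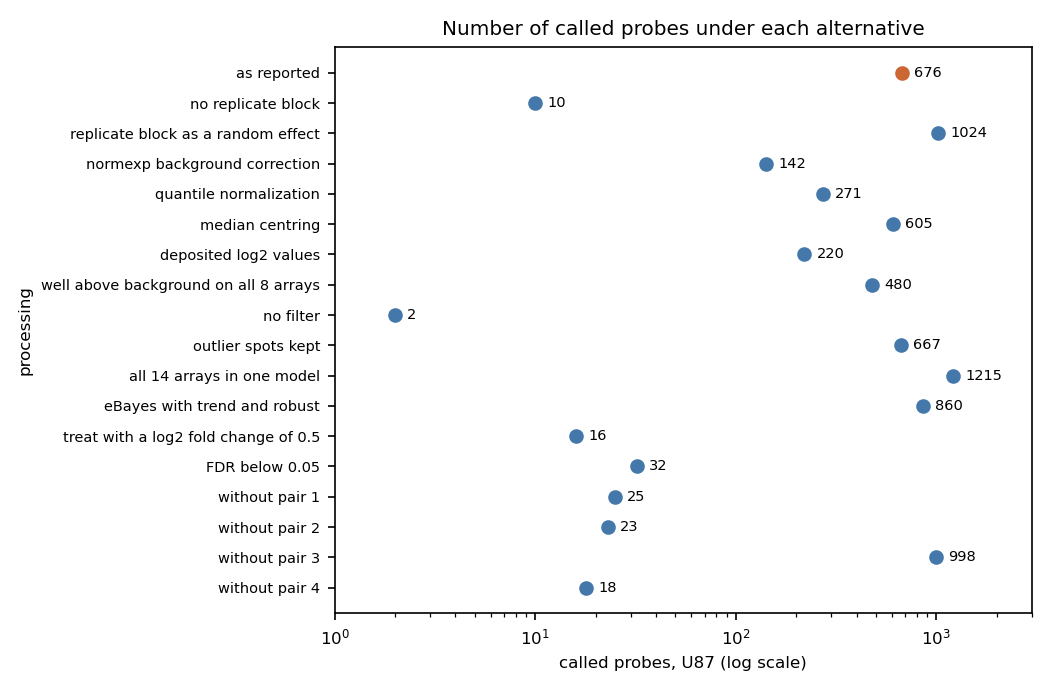
Number of called U87 probes (log axis) as reported and under each alternative processing. It lay between 2 without a filter on dim probes and 1215 with all 14 arrays in a model, against 676 as reported.

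The largest rises among probes seen on all 8 arrays were those of MOK, a protein kinase related to the MAP kinases, and PLAU, the urokinase-type plasminogen activator that cuts plasminogen at the cell surface. MOK (A_33_P3326989) had a log2 signal of -0.12, 0.19, 0.054 and -0.11 in control sets 1 to 4 and of 1.47, 1.62, 1.78 and 1.88 in the knockdown sets. Every knockdown array was above every control, and the log2 fold change was 1.69 (SE 0.13, adjusted p = 0.0203), or 3.22-fold. A further MOK probe, A_23_P76731, gave 1.89 (adjusted p = 0.0182). Under normexp correction the MOK probes gave 1.06 and 1.07, both still called. PLAU (A_33_P3306146) stood at 1.54, 1.58, 0.66 and 1.63 in controls and at 2.87, 3.01, 2.70 and 3.01 after knockdown. Control set 3 was the low one of the controls, the groups did not overlap, and the log2 fold change was 1.55 (SE 0.15, adjusted p = 0.0451), or 1.38 without set 3. The probe A_23_P24104 of PLAU rose by 1.47 (adjusted p = 0.0487), and its call was lost without set 1 (adjusted p = 0.212) and without set 4 (0.245).

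The start windows of the same genes are shown as those of the strongest risers. Capitals mark the GC box GGGCGG, searched on both strands (GRCh38.p14, PLAU at chr10:73910882-73911181 on the plus strand, MOK at chr14:102305115-102305414 on the minus strand).
PLAU: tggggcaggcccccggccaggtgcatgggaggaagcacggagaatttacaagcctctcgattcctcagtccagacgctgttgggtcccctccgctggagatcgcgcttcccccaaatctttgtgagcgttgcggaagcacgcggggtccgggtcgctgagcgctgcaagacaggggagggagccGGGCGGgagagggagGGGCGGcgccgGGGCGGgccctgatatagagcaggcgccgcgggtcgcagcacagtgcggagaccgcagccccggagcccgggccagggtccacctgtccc
MOK: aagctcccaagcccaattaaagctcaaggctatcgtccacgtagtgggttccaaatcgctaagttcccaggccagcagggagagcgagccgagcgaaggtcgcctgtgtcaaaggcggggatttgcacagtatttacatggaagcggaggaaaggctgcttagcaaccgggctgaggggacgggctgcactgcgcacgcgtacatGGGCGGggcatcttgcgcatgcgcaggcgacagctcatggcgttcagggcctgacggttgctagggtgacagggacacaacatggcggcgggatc
The PLAU window holds 3 GC boxes and the MOK window 1. GC boxes occur in 43.4% of all RefSeq windows, and neither of these windows holds TGANTCA or TTCNNNGAA.

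The other large rises follow by gene. WNT5B, a WNT ligand, went from -0.98, -0.82, -0.32 and -0.80 in controls to 0.13, 0.30, 0.72 and 0.34 after knockdown. Its pairs were nearly alike, between 1.04 and 1.14 log2 units, and the fitted change of 1.11 (adjusted p = 0.0346) lost its call without set 4 (adjusted p = 0.207). TGM2, the tissue transglutaminase that crosslinks proteins, stood at 1.24, 1.20, 0.77 and 0.28 in controls and at 2.27, 2.23, 1.54 and 1.41 after knockdown. Sets 3 and 4 were lower than the others in both groups, no control reached any knockdown array, and the log2 fold change was 0.99 (adjusted p = 0.0552). CNST (A_33_P3424467), which guides connexins to the cell surface, rose by 1.29, the pseudokinase gene TRIB2 by 1.19 and NNMT, which methylates nicotinamide, by 1.12. FHIP2A (1.07), the adenosine receptor gene ADORA2A (1.02), the RNA-binding protein gene RBMS1 (1.00), DOLPP1 (0.99), which recycles the lipid carrier of glycans, and POMK (0.98), a kinase that modifies dystroglycan, made up the 12 largest rises. Further probes of CNST (A_33_P3376379, -0.18, adjusted p = 0.41) and RBMS1 (A_33_P3316323, -0.028) were not called. Normexp correction moved WNT5B to 0.5, FHIP2A to 0.43, DOLPP1 to 0.46 and POMK to 0.48, which were then not called, and TRIB2 to 0.53, ADORA2A to 0.58 and NNMT to 0.64, which still were. Without set 4 the FHIP2A call was lost (adjusted p = 0.271), as it was without set 1 (0.228), and those of TGM2, CNST, TRIB2, NNMT, ADORA2A, RBMS1, DOLPP1 and POMK were lost without set 1, 2 or 4 at adjusted p between 0.212 and 0.342.

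Among probes seen on all 8 arrays, the largest fall outside the locus was that of GPAT3, an acyltransferase that starts glycerolipid synthesis. Its log2 signal was 1.89, 2.04, 0.42 and 2.43 in control sets 1 to 4 and -0.45, -0.22, -1.32 and 0.23 in the knockdown sets. Set 3 was dim in both groups, yet the lowest control still lay above the highest knockdown, and the log2 fold change was -2.13 (SE 0.13, adjusted p = 0.0144), to 22.8% of control. SDC4, a heparan sulfate proteoglycan of focal adhesions, went from 3.59, 3.62, 3.36 and 3.61 to 2.02, 2.33, 2.08 and 2.03. The groups were each tight and far apart, with a change of -1.44 (SE 0.11, adjusted p = 0.0213). PAX8-AS1, an antisense long noncoding RNA, went from 1.28, 1.37, 0.64 and 0.96 to -0.54, -0.24, -0.95 and -0.88, a change of -1.71 (adjusted p = 0.0144) without overlap. AGTRAP, which binds the angiotensin receptor, fell by 1.33 (adjusted p = 0.0204), from 2.24, 2.25, 1.99 and 1.65 to 0.76, 0.98, 0.73 and 0.35, and C6orf141 changed by -1.83 (adjusted p = 0.0199). Under normexp correction GPAT3, PAX8-AS1 and C6orf141 were at -1.29, -0.89 and -0.75 and still called.

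Further large falls were those of AAK1 (-1.36), a kinase of clathrin adaptors, NCOA6 (-1.22), a coactivator of nuclear receptors, and the RAS-related GTPase gene RRAD (-1.20). PAXIP1 (-1.19), a BRCT domain protein of the DNA damage response, CERCAM (-1.13), GLTP (-1.10), which carries glycolipids, and C14orf132 (-1.10) completed the 12. Further probes of AAK1 (A_33_P3289204, -0.21) and C14orf132 (A_23_P151529, 0.018) were not called. Normexp correction moved AAK1 to -0.69, NCOA6 to -0.71, PAXIP1 to -0.79, CERCAM to -0.71 and GLTP to -0.66, all still called. In AAK1, NCOA6 and C14orf132 the groups overlapped across sets while each pair went down. The calls of AAK1, NCOA6, PAXIP1 and GLTP were lost without set 1, 2 or 4 at adjusted p between 0.264 and 0.29. RRAD lost its call without set 1 (adjusted p = 0.204) and set 2 (0.21), CERCAM without set 1 (0.307) and set 4 (0.287), and C14orf132 without set 2 (0.265) and set 4 (0.269).

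**Figure D3:**
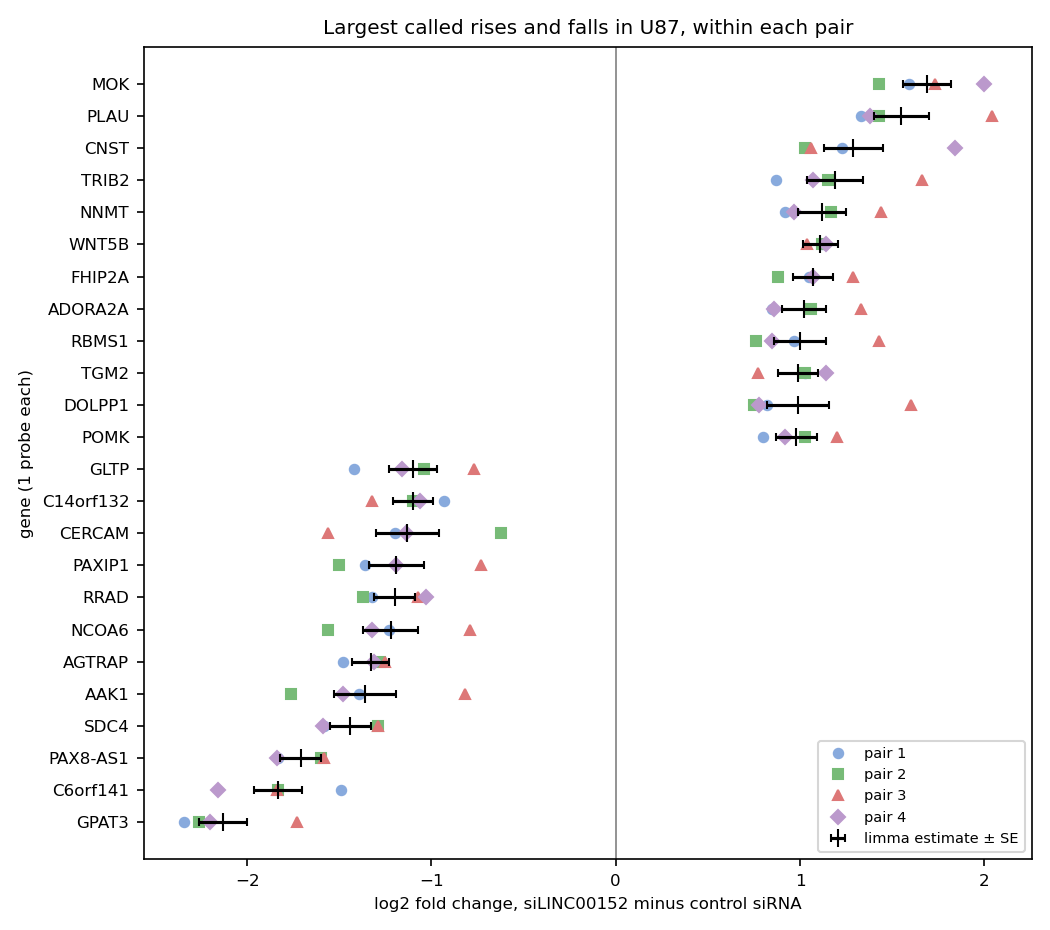
Log2 fold change of the 12 largest called rises and 12 largest called falls outside the locus among probes seen on all 8 U87 arrays; coloured symbols are the 4 pairs, bars the limma estimate with its SE. All pairs lie on the same side of 0 for each gene, from 1.69 for MOK to -2.13 for GPAT3, and set 3 is often the farthest from the others.

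Some genes crossed the background level. Among the called probes, 11 were well above background on 0 control arrays and 44 on 0 knockdown arrays. The filter let such probes in only through the group where they were bright, so their direction was largely fixed in advance. Their adjusted p-values carry the same selection. How many tested probes were of this kind was not counted, while 3.08% of all tested probes were called. The fold is then a lower bound, taken against the weakest signal that still counted as well above background. TP53INP1, a p53-induced gene of autophagy and cell death, had a log2 signal of -2.64, -2.36, -3.39 and -2.69 in controls and of -0.72, -0.79, -1.44 and -1.0 after knockdown (A_33_P3421163). It rose at least 1.92-fold (adjusted p = 0.0144), with all knockdown arrays above all controls. The phospholipid flippase gene ATP9A (A_23_P380614) was at -1.03, -0.51, -1.42 and -0.72 in controls and at -3.85, -2.76, -3.39 and -2.90 after knockdown. It fell at least 2.15-fold (adjusted p = 0.0169) and was seen on 3 control arrays, so it could not be tested without set 1, 2 or 4. LYPLAL1-DT, a divergent noncoding transcript, fell at least 2.63-fold (adjusted p = 0.0451). RAB3C, a GTPase of vesicle release, fell at least 1.63-fold and the netrin receptor gene UNC5C at least 1.60-fold, while VSIG10L (1.36-fold), the transcription factor gene KLF2 (1.36-fold) and IGSF3 (1.22-fold) rose by at least the fold given. Further probes of IGSF3 (A_21_P0011816, -0.32) and UNC5C (A_24_P42624, 0.13) were not called. The calls of UNC5C and KLF2 were lost without set 1 (adjusted p = 0.29 and 0.411), set 2 (0.29 and 0.412) or set 4 (0.298 and 0.382), and that of RAB3C without set 2 (0.307) and set 4 (0.276). IGSF3 could be tested only without set 1 and VSIG10L only without set 2, and both then lost the call (adjusted p = 0.204 and 0.223). All of these dim probes lost their calls under normexp correction, where TP53INP1 was at 0.39, ATP9A at -0.39, LYPLAL1-DT at -0.5, VSIG10L at 0.22, IGSF3 at 0.18, KLF2 at 0.2, and RAB3C and UNC5C at -0.2.

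Genes that the study followed up were read in the same fit. FOXM1, the transcription factor of mitotic genes, stood at 2.10, 2.25, 1.98 and 2.28 in controls and at 1.1, 1.29, 1.23 and 1.1 after knockdown. The groups did not overlap, and it fell by 0.97 log2 units (SE 0.11, adjusted p = 0.0634), a call that was lost without set 1 (adjusted p = 0.29), set 2 (0.29) or set 4 (0.273). STAT3, the cytokine-activated transcription factor, was at 1.31, 1.32, 0.019 and 1.55 in controls and at 1.52, 1.73, 1.24 and 1.98 after knockdown on probe A_24_P116805. Each knockdown array was above its own control but the groups overlapped, and the log2 fold change of 0.57 did not pass (adjusted p = 0.251); it was 0.35 without set 3. The other STAT3 probe, A_23_P100795, gave 0.11 (adjusted p = 0.585). The gelatinase gene MMP2 had a log2 fold change of 0.084 (adjusted p = 0.875), or -0.21 without set 3, and was not called. The probes that RefSeq names assign to DAND5, NFIA, LINC01095, FRAS1 and SAA1 were too dim to be tested, and no probe could be assigned to CCNA1. The paper's supplement lists LINC01095 on another probe, which was not among those read here.

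Gene lists were read through the brightest tested probe of each gene. Of 12136 genes tested this way, 237 were called higher (1.95%) and 181 lower (1.49%), the median log2 fold change was 0.018, and 52.6% lay above 0. Without set 1, 2, 3 and 4 these counts were 3, 5, 272 and 1 higher and 10, 9, 294 and 8 lower. Of 1039 genes on any list, 42 were called higher and 20 lower; without sets 1, 2, 3 and 4 the higher calls were 2, 2, 38 and 0 and the lower calls 2, 2, 38 and 2. With 3 sets left, each called list member named below lost its call without set 1, without set 2 and without set 4, apart from these. SDC4 and PAX8-AS1 kept theirs, WNT5B lost it without set 4 alone, PLAU (A_23_P24104) without sets 1 and 4, and TP53INP1 (A_23_P168882) without sets 2 and 4. ATP9A, CCN2, SOX9, DUSP1, MXI1, CDC6 and POLA1 were too dim in set 3 or a further array to be tested without set 1, 2 or 4. List medians are given with their value without set 3, whose arrays were dim. Without that set the calls were 2 higher and 2 lower among actin genes, p53 targets and hypoxia genes alike. They were 1 and 4 in the TGF-beta list and 1 and 2 in the JAK, MAPK and long noncoding RNA lists. The Notch, NF-kB, autophagy and Polycomb lists had 0 and 1, and the lists of G2 and housekeeping genes 0 and 2. ER chaperones had 2 and 0, YAP targets 3 and 0, and the AP-1 list 2 and 1. Receptor tyrosine kinases and mesenchymal glioblastoma genes had 1 and 1. Normexp correction moved some medians towards 0, to -0.072 for Notch genes and 0.079 for hypoxia genes. It gave 0.019 for the TGF-beta list and 0.036 for double-stranded RNA sensing. At their smallest across the alternatives, IFIT3 and FILIP1L were at 0.16, SOX9 at 0.2, LIFR at 0.28 and SLC2A3 at 0.29. Among members that fell, CDC6 came to -0.11, MXI1 to -0.16, POLA1 to -0.2 and IKBKE to -0.26.

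Lists of the extracellular matrix and the cell surface held rises as well as falls. Of 29 tested collagens, laminins and matrix glycoproteins 2 rose and 1 fell, with a median of 0.039 (0.049 without set 3). The collagen gene COL1A2 rose by 0.95 (adjusted p = 0.0637) and the laminin chain gene LAMB3 by 0.55, while the proteoglycan gene VCAN fell by 0.55. Among 21 metalloproteinases, TIMPs and plasminogen genes 2 rose, PLAU and the metalloproteinase gene ADAMTS1 (0.63), and 0 fell, while 3 were higher and 2 lower without set 3. The list median of 0.037 was 0.0022 without that set and -0.0041 under normexp correction. Of 15 integrins and syndecans SDC4 alone was called, and the median was -0.11 (-0.054 without set 3). Of 39 actin and focal adhesion genes CNN2 (0.80), FILIP1L (0.64) and ACTG1 (0.56) rose and the myosin heavy chain gene MYH9 fell by 0.60, with 31 of 39 above 0 and a median of 0.19 (0.14 without set 3). Among 24 Eph, ephrin, semaphorin and plexin genes SEMA7A rose (0.57; median 0.047, or 0.074 without set 3). Of 20 receptor tyrosine kinases the collagen receptor gene DDR2 rose (0.73) and the median was -0.12 both with and without set 3. Of 13 genes of the epithelial-mesenchymal transition the keratin gene KRT8 fell by 0.53, and the median of -0.017 was -0.09 without set 3 and 0.044 at the other end of the scalings. ACTG1, SEMA7A and KRT8 lost their calls also without set 3, where their log2 fold changes were 0.42, 0.45 and -0.49.

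In the TGF-beta and BMP list a receptor gene rose, while a SMAD, a ligand and a BMP receptor gene fell. TGFBR2, the ligand-binding receptor for TGF-beta, stood at 0.96, 0.94, 0.93 and 1.56 in controls and at 1.83, 1.86, 1.78 and 2.44 after knockdown. Set 4 was the high one in both groups, no control reached any knockdown array, and the log2 fold change was 0.88 (SE 0.10, adjusted p = 0.0526). SMAD3, which carries the TGF-beta signal to the nucleus, was at 1.85, 2.07, -0.31 and 2.08 in controls and at 0.49, 0.89, -0.79 and 0.81 after knockdown. Set 3 was far below the others in both groups, and SMAD3 fell by 1.07 (adjusted p = 0.0965), or 1.27 without that set. The ligand gene TGFB1 fell by 0.51 and the BMP receptor gene BMPR1A by 0.54, so that 1 of 21 tested members rose and 3 fell, with a median of 0.081 (0.026 without set 3).

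Calls in other signalling lists also went both ways. Of 21 WNT pathway genes WNT5B and the receptor gene FZD2 (0.56) rose and the transcription factor gene TCF7 fell by 0.74; the median was -0.10 (-0.073 without set 3). Among 16 genes listed as YAP targets CCN2 (0.83), a matricellular growth factor, and WWTR1 (0.73) rose and 0 fell. The median of that list was 0.15 with or without set 3 and 0.031 under normexp correction. CCN2 was well above background on 3 arrays of each group, set 3 being the dim one. Of 19 Notch genes the DNA-binding effector gene RBPJ rose (0.59, or 0.46 and not called without set 3), while the median was -0.19 (-0.15 without set 3) and 5 of 19 lay above 0. In 16 MAPK feedback genes ETV1 rose (0.58) and the phosphatase gene DUSP1 fell by 0.72, with a median of -0.11 (-0.14 without set 3). Of 18 JAK and STAT3 pathway genes the cytokine receptor gene LIFR rose (1.05, or 0.75 without set 3) and TRIM8 fell by 0.57. The list median of 0.076 was -0.023 without set 3 and -0.018 under normexp correction. Of 21 AP-1, MAF and immediate early genes MAFF (0.63) and KLF2 rose, with a median of -0.08 (-0.024 without set 3).

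Among genes of the cell cycle and of p53 some fell and some rose. CDKN1A, the cyclin-dependent kinase inhibitor that p53 induces, had a log2 signal of 3.57, 3.22, 4.82 and 3.05 in controls and of 2.70, 2.49, 4.07 and 2.29 after knockdown. Set 3 was high in both groups, the groups overlapped across sets, and each pair went down, with a log2 fold change of -0.78 (SE 0.10, adjusted p = 0.0637). Among 20 G1 cyclins, CDK inhibitors and E2F factors it was called lower together with FOXM1, 0 were higher, and the median was -0.063 (-0.061 without set 3). Of 37 S phase genes CDC6 (-0.62), which loads the replicative helicase, and the polymerase gene POLA1 (-0.71) fell and 0 rose; without set 3 the count was 5 lower, and the median of -0.051 was then -0.079, and 0.01 under another scaling. Of 45 genes of G2 and mitosis the chromatin protein gene HMGB2 fell by 0.60 and 0 rose, with a median of 0.057 (-0.015 without set 3). Of 29 p53 targets TP53INP1 (A_23_P168882, 1.53), PLK2 (0.65) and the damage sensor gene DDB2 (0.59, or 0.49 and not called without set 3) rose and CDKN1A fell. The median of 0.015 was 0.027 without set 3 and -0.014 under normexp correction. In 15 BCL2 family genes 0 were called (median 0.13, or 0.034 without set 3), and in 24 genes of Polycomb and DNA methylation 0 were called (median 0.036, or 0.021).

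The list with the highest median was that of the proteasome, the complex that degrades ubiquitin-tagged proteins. Of its 30 tested subunits 28 had a log2 fold change above 0, and the median was 0.35, against 0.018 over all tested genes. In the single pairs the median was 0.28, 0.25, 0.55 and 0.27, and it was 0.25 without set 3. Only the deubiquitinating lid subunit gene PSMD14 passed the call, at 0.70 (adjusted p = 0.171) and 0.52 without set 3. In the mitochondrial respiratory chain 68 of 74 genes were above 0, with a median of 0.17 (0.12 without set 3) and ATP5F1B called (0.54, or 0.40 and not called without set 3). Among 22 ER chaperones and genes of the unfolded protein response PDIA4, a protein disulfide isomerase, rose (0.86), and the median was 0.21 (0.086 without set 3). The 14 cytosolic heat shock genes had HSPB1 called higher (0.60) and a median of 0.087 (0.0016 without set 3). Of 76 cytosolic ribosomal protein genes 63 were above 0, 0 were called, and the median was 0.096 (0.029 without set 3). In 20 NRF2 and antioxidant genes the aldo-keto reductase genes AKR1C3 (0.74) and AKR1C1 (0.58, or 0.47 and not called without set 3) rose, with a median of 0.20 (0.11 without set 3). Of 48 autophagy and lysosome genes the protease gene CTSL rose (0.62, or 0.47 and not called without set 3; median 0.10, or 0.087), and of 35 ATF4 and amino acid response genes 0 were called (median 0.094, or 0.051).

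Lipid and sugar metabolism gave single strong members. ACLY, which makes cytosolic acetyl-CoA for lipid synthesis, stood at 4.41, 4.56, 3.06 and 4.49 in controls and at 5.17, 5.37, 4.40 and 5.20 after knockdown. Set 3 was low in both groups, the groups overlapped across sets, and the log2 fold change was 0.91 (adjusted p = 0.0938), or 0.76 without it. With ACSS2 (0.55, or 0.48 and not called without set 3), another source of acetyl-CoA, 2 of 12 fatty acid synthesis genes rose and 0 fell, with a median of 0.16 (0.13 without set 3). Of 17 cholesterol synthesis genes DHCR7 rose (0.63), 14 were above 0, and the median was 0.23 (0.22 without set 3, 0.078 under normexp correction). PGK1, a glycolytic kinase, went from 6.35, 6.68, 5.35 and 7.13 in controls to 5.36, 5.68, 4.48 and 5.74 after knockdown. It fell in each pair, by 1.06 log2 units (SE 0.12, adjusted p = 0.0634), and its groups overlapped across sets. Against it, 12 of 15 glycolysis genes were above 0 with a median of 0.17 (0.096 without set 3), and in 15 housekeeping genes, PGK1 among them, the median was 0.062 (-0.0092 without set 3). Of 25 hypoxia response genes the glucose transporter gene SLC2A3 rose (0.89) and MXI1 fell by 0.52; the median of 0.16 was 0.64 in the pair of set 3 alone and -0.0047 without it. Among 7 phospholipid flippase genes ATP8B3 (0.76) and the accessory subunit gene TMEM30A (0.63) rose and ATP9A fell (median 0.10, or 0.0061 without set 3). In 22 ABC transporters 0 were called (median 0.034 with or without set 3, or -0.0025 under normexp correction).

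Lists of RNA sensing and innate immunity were included because an siRNA is a double-stranded RNA. Of 28 interferon-induced genes IFIT3 (0.79) and the deISGylase gene USP18 (0.79) rose and 0 fell, with a median of 0.076 (0.044 without set 3). Among 15 genes of double-stranded RNA sensing the kinase gene IKBKE fell by 0.97 and 0 rose, with a median of 0.10 (0.06 without set 3). The colony-stimulating factor gene CSF1 rose (0.54, or 0.49 and not called without set 3) among 19 NF-kB and cytokine genes, whose median was -0.14 (-0.11 without set 3). Of 11 genes of the RNA interference machinery the slicer gene AGO2 rose (0.73), and the median of -0.03 was -0.037 without set 3 and 0.032 at the other end of the scalings. Both groups had received an siRNA, and no array was without one.

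**Figure D4:**
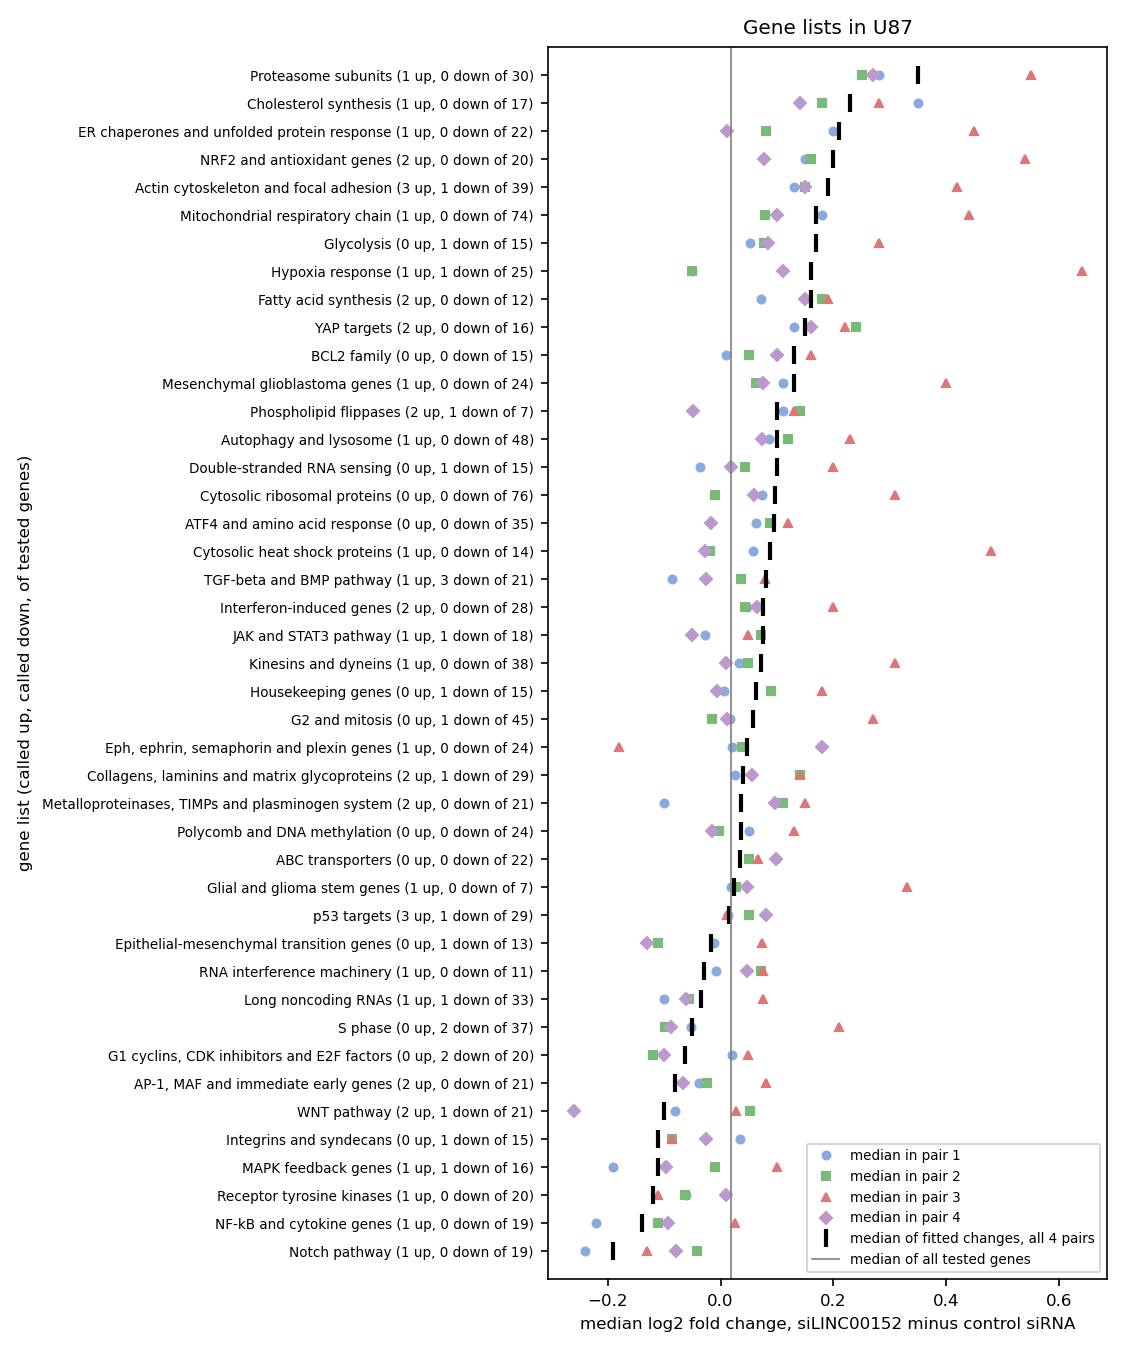
Median log2 fold change of gene lists in U87. Coloured symbols are the medians in each pair and black bars the median of fitted changes over 4 pairs. The grey line is the median of all 12136 tested genes (0.018). The proteasome list is the highest at 0.35, and set 3 often lies to the right of the other pairs, as in the hypoxia list at 0.64.

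Identity lists held 0 to 2 calls each. Of 24 mesenchymal glioblastoma genes WWTR1 rose and 0 fell, with a median of 0.13 (0.066 without set 3). Of 7 tested glial and glioma stem genes SOX9 rose (0.81, or 0.57 without set 3); its control of set 3 was at -3.22 and not well above background, and the list median of 0.023 was -0.03 without set 3 and -0.013 under another scaling. Among 33 tested long noncoding RNAs PAX8-AS1 fell and OIP5-AS1 rose (0.52, or 0.47 and not called without set 3), and the median of -0.034 was -0.012 without set 3 and 0.028 under another scaling. Of 38 kinesins and dyneins the dynein chain gene DYNC1I1 rose (0.67; median 0.071, or 0.0093 without set 3). Markers of other cell types were mostly below the filter: 6 genes of microglia and other leukocytes, 4 of oligodendrocytes, 3 of endothelial cells, 3 of neurons and 1 of fibroblasts and pericytes were tested, and 0 of these were called. Of 4 tested epithelial markers KRT8 was called lower.

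The change in U87 was compared with that in A172 in a model of all 14 arrays, through the difference of the knockdown effects on 21161 probes tested in both lines. It was called for 279 probes (1.32%), 213 with the higher change in U87 and 66 with the lower. Of 606 probes called in U87 and tested in both lines, 91 were among them. These 606 were selected by the U87 change, which is itself a term of the difference, so their share cannot be set against the 1.32%. No difference was called for any of the 4 listed locus probes. LINC00152 changed by -2.61 in A172, a difference of -0.12 (SE 0.20, adjusted p = 0.855). The count was 7 without set 1, 4 without set 2 and 140 without set 3 of both lines, and 133 without set 4, which U87 alone has. It was 2 when the pairing was ignored. The U87 arrays and the A172 arrays were on different slides, so line and slide cannot be told apart.

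Among the named probes that rose in U87, some with a negative A172 value are given first. The difference subtracts the A172 value, so a negative value there widens it by construction. FILIP1L had 0.64 in U87 and -2.36 in A172, a difference of 3.00 (SE 0.27, adjusted p = 0.0114). In U87 its log2 signal was -2.04, -1.67, -1.29 and -0.38 in controls and -0.98, -1.39, -0.50 and 0.04 after knockdown, so that sets differed more than groups. This probe, A_23_P252052, was well above background on 2 of the U87 control arrays. Another FILIP1L probe, A_33_P3222391, was too dim in U87 to be tested. Its differences in pairs 1 to 4 were -0.62, -0.002, -0.47 and 1.08. PLAU (A_23_P24104) had 1.47 against -0.71, a difference of 2.18 (SE 0.21, adjusted p = 0.0118). TGM2 had 0.99 against -1.01, a difference of 2.00 (adjusted p = 0.0289), and LAMB3 0.55 against -0.98, a difference of 1.53 (adjusted p = 0.0388). The difference was also called for MOK (1.28 on A_33_P3326989), CNST (1.38 on A_33_P3424467), LIFR (1.59), SOX9 (1.24), IFIT3 (1.02), NNMT (0.91), DDR2 (0.88), WNT5B (0.78) and TGFBR2 (0.70). STAT3 (A_24_P116805) had 0.57 against -0.78, a difference of 1.35 (SE 0.30, adjusted p = 0.171), while the change within U87 was not called; on A_23_P100795 the difference was 0.54 (adjusted p = 0.33). The adhesion receptor gene CD44 had 0.12 in U87 and -1.13 in A172 on A_33_P3294509 (difference 1.25, adjusted p = 0.0289), but a difference of 0.44 (adjusted p = 0.45) on A_21_P0000152, and MMP2 0.084 against -1.69 (difference 1.77, adjusted p = 0.177), with its U87 value turning to -0.21 without set 3. Among the named probes those of DUSP1, TCF7 and RAB3C had the lower change in U87, with differences of -0.99, -1.39 and -0.96. The other CNST probe, A_33_P3376379, also did, with -0.18 in U87 and 0.54 in A172 (difference -0.72, adjusted p = 0.188). For GPAT3, PAX8-AS1, RRAD, LYPLAL1-DT and ADORA2A the difference could not be tested, because these were too dim in A172. FOXM1 (-1.39 in A172, difference 0.42, adjusted p = 0.569), TP53INP1, SDC4, AGTRAP, CDKN1A and PGK1 had no called difference.

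**Figure D5:**
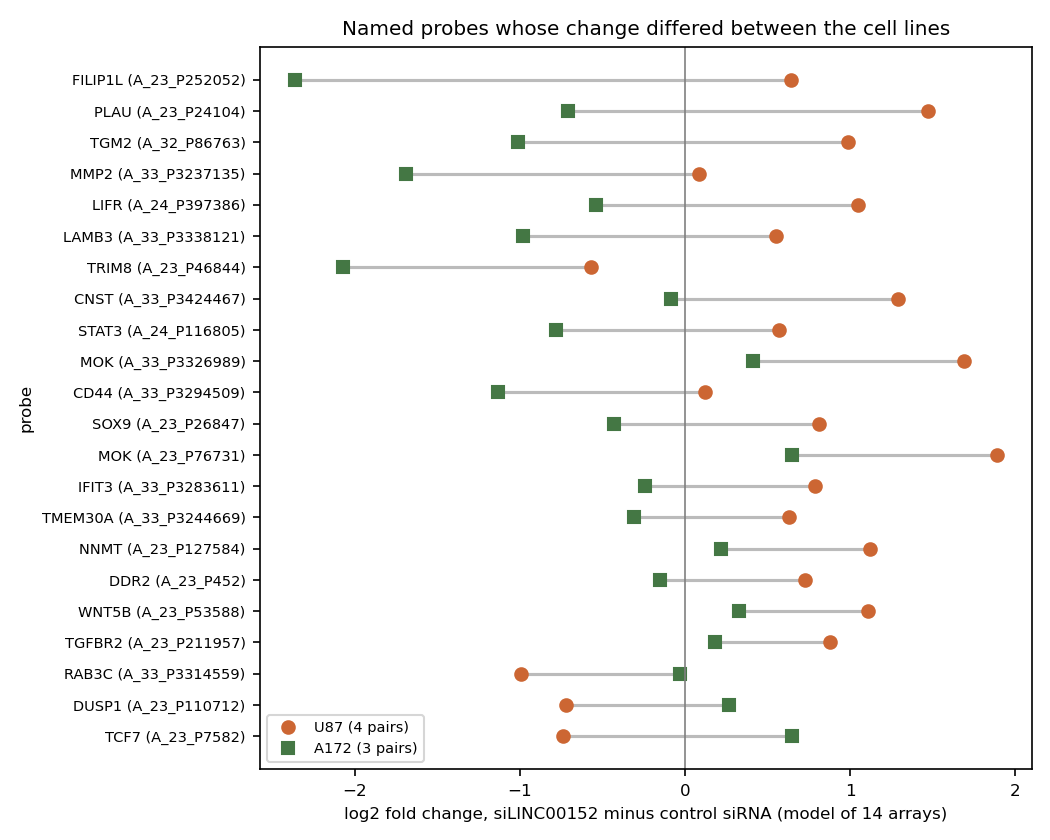
Log2 fold change of the 22 named probes whose change differed between the lines, from the model of 14 arrays; circles are U87 (4 pairs) and squares A172 (3 pairs). FILIP1L spans the widest gap, from 0.64 to -2.36, and all but DUSP1, TCF7 and RAB3C lie higher in U87.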

How the data were processed

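The deposited files are Agilent Feature Extraction 11.5.1.1 outputs (one-colour, Cy3), in which the authors' software wrote the intensity of each spot after background subtraction; the deposited series matrix holds log2 values normalised by the authors. Background-subtracted intensity was taken as log2 minus each array's 75th percentile of non-control spots, outlier spots were left out and spots averaged per probe. RefSeq gave a symbol to 29033 of 50599 probes. limma 3.58.1 in R 4.3.3 was fitted to the 8 U87 arrays with set number as a block; 1 of 21919 filtered probes had no estimate. Residuals of the arrays of a set correlated with r = 0.373, 0.569, 0.857 and 0.864 across probes, which are not independent replicates; those of set 1 also correlated with an array of another set at 0.43 (control) and 0.411 (knockdown). Named genes were 4 listed locus probes, the 12 largest called rises and falls seen on all 8 arrays, the 4 largest bounded changes per direction, genes followed up in the study, up to 4 called members per list and marker genes. The members, the named genes and the 49 lists were chosen with earlier results of these data known, and no set test was run. Alternatives covered the block, normexp correction (from median signal, the files having no mean signal column), scaling, filters, the model, thresholds and leaving out each set. The number of arrays limits the precision.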

Additional observations from a re-analysis of the deposited data

Results flagged for a closer look

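Of 205 groups of 4 arrays examined, 28 held an array set apart from the other 3. Chance gives about 1 in 20 groups where groups are independent. These groups were read on the same arrays, mostly for probes named because they were called, so the 28 cannot be set against that rate. Set 3 was the array in 22 of the 28, in 18 cases its control, the array with the lowest 75th percentile of intensity. The part of signal strength in this was not tested.

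Control set 3 lay below the other controls at a log2 signal of 0.66 for PLAU (A_33_P3306146), 3.36 for SDC4, 0.019 for STAT3 (A_24_P116805), 0.52 for CNN2, 5.47 for ACTG1, 2.45 for CTSL and 0.50 for DHCR7. It was also the low control for PDIA4 (1.99), ACLY (3.06), DUSP1 (-3.34), ATP5F1B (2.97), PSMD14 (0.69), POLA1 (-1.76), SMAD3 (-0.31), VIM (8.32) and CD44 (1.27). It lay above the other controls for CERCAM (2.55) and LYPLAL1-DT (-0.075). Knockdown set 3 was low for CTSL (3.53), DUSP1 (-3.82) and ATP5F1B (3.95) and high for STAT3 (A_23_P100795, 1.13). Set 4 stood apart for CNST (control, 1.38, low), PAXIP1 (knockdown, 0.87, high), VCAN (control, 2.74, high), ADAMTS1 (control, 2.34, high) and TGFBR2 (control, 1.56, and knockdown, 2.44, both high).

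The change in U87 minus that in A172 was called for 22 of 99 named probes tested in both lines, most of them named because they were called in U87, and for 279 of all 21161 probes (1.32%). It was 3.00 for FILIP1L, 2.18 for PLAU, 2.00 for TGM2, 1.77 for MMP2, 1.59 for LIFR, 1.53 for LAMB3, 1.5 for TRIM8, 1.38 for CNST and 1.35 for STAT3. Lower positive differences were 1.28 and 1.23 for the MOK probes, 1.25 for CD44, 1.24 for SOX9, 1.02 for IFIT3, 0.94 for TMEM30A, 0.91 for NNMT, 0.88 for DDR2, 0.78 for WNT5B and 0.70 for TGFBR2. It was -1.39 for TCF7, -0.99 for DUSP1 and -0.96 for RAB3C.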

How the results depend on the processing

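The LINC00152 probe was called lower under every alternative run, with log2 fold changes from -2.82 to -1.52, and from -2.82 to -2.59 with a set left out. No called value of the 106 named probes turned direction, though uncalled values near 0 of MMP2, CHI3L1, CDKN2A and NES (A_23_P103672) did. Of their 1742 values under alternatives 1049 kept their side of the threshold, 689 fell short of it and 4 passed it anew, all 4 of them STAT3 (A_24_P116805). The called probes in U87, those higher and those lower, and those whose change differed from A172 numbered 676, 341, 335 and 279. Without a block for the pairs they were 10, 1, 9 and 2, the pairing being ignored. With the replicate block as a random effect there were 1024 calls, 522 lower, and 594 differences. Normexp correction gave 142, 81, 61 and 432, and the deposited log2 values 220, 102, 118 and 181. Quantile normalization gave 271, 138 higher and 133 lower, and median centring 211 lower. With no filter there were 2, 0, 2 and 20, while 4172 of 50598 probes had an unadjusted limma p below 0.05; more and dimmer probes were then tested. With all 14 arrays in a model there were 1215, 606 and 609. Testing against a fold change threshold (treat) gave 16, 3, 13 and 9, and a false discovery rate below 0.05 gave 32, 12, 20 and 34, both stricter by construction. Leaving out a set gave 18 to 998 calls, 4 to 439 higher, 14 to 559 lower and 4 to 140 differences. Each of these fits had fewer arrays, and those without set 1, 2 or 4 kept the dim set 3. The cause of these changes in number was not tested, nor was it for the remaining alternatives. The counts kept within 1.5 times with outlier spots kept, a filter on all 8 arrays, and trend with robust eBayes. Dim probes, near background on set 3, limit what could be tested.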

Other observations

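Changes were also uneven by kind of probe. Of 13978 tested probes of protein coding genes 286 were called higher and 224 lower (3.65%), with a median log2 fold change of 0.034. Probes of other named genes, mostly noncoding, numbered 1479 and had 13 higher and 25 lower calls (2.57%; median -0.084). Among 6461 tested probes without a symbol 42 were higher and 86 lower (1.98%; median -0.093). Probes called unnamed, 128 in all, were not described further.

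Some genes outside the named ones also differed between the lines, chosen after their values were seen. GBP1, an interferon-induced GTPase, had a log2 fold change of 0.95 in U87, where it was called, and -0.89 in A172 (difference 1.84, SE 0.18, limma adjusted p = 0.0118). The myosin light chain kinase gene MYLK (A_23_P143817) had 0.82 and -0.98 (difference 1.79, adjusted p = 0.0118). OASL, another interferon-induced gene, had -0.078 in U87, not called, and -3.09 in A172 (difference 3.01, adjusted p = 0.0013).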
